A study of Mus musculus with 3 samples.

Results

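Trp53, Mdm2, Mdm4, Atm, Atr, Prkdc, Ccng1, Trp53inp1, Sesn1 and Sesn3 are 10 genes of the p53 pathway, chosen by symbol from 55536 annotated mouse genes, of which 22028 are protein-coding. They comprise p53 itself, its 2 main inhibitors, 3 DNA damage kinases and 4 genes that p53 can switch on. Each symbol matched a single gene, and all 10 genes were measured in every library, so none was lost to a filter on low values. Total RNA was sequenced from T cells of the spleen, selected by CD3, of B6CASTF1/J mice, whose mothers were C57BL/6 and whose fathers were CAST/EiJ. The labels give female adults of 66 days and 300 ng of RNA per library, and list no other allele and no agent. There were 3 libraries in 1 group, called replicates 1, 2 and 3, so no condition was compared with another. The labels give them separate biosamples under 1 donor record and do not say whether each came from its own mouse. The SDs and the p-values for spread therefore measure how far these samples differ, in part or wholly for technical reasons. The p-values for ratios between genes ask instead whether a ratio keeps 1 direction over the same 3 libraries. The libraries held 16.93, 15.04 and 16.25 M estimated counts in replicates 1, 2 and 3.

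The tumour suppressor p53 is a transcription factor that is made continuously and destroyed continuously. MDM2 is the ubiquitin ligase that marks it for destruction, and MDM4, a relative of MDM2, binds p53 and blocks its activity while pairing with MDM2. After DNA damage the kinases ATM, ATR and DNA-PKcs (the product of Prkdc) phosphorylate p53 and its partners, p53 is freed, and its target genes, Mdm2 among them, are transcribed. T cells meet breaks in DNA when they rearrange their receptor genes and when they divide, and loss of p53 in mice is best known for thymic lymphoma.

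The T-cell label was borne out by its markers. All 7 T-cell markers were above 10 TPM (an abundance corrected for transcript length and depth), and 6 of 7 were at or above 100 TPM, led by Trac at 492 ± 16.4 TPM, Lck at 321 ± 10.2 TPM and Cd3e at 319 ± 10.2 TPM (SD, n = 3). Summed over the list, T-cell markers reached 1820 to 1940 TPM, against 8.27 to 13.8 TPM for 5 B-cell markers, 24.4 to 30.4 TPM for 6 myeloid markers, 5.74 to 7.47 TPM for 3 natural killer markers and 32.7 to 63.8 TPM for 4 red cell markers. The highest of each of those 4 lists were Hba-a1 at 25.1 ± 8.19 TPM, Lyz2 at 16.4 ± 1.37 TPM, Klrb1c at 4.58 ± 0.766 TPM and Cd79b at 3.79 ± 0.208 TPM. No marker of those 4 lists was at 0 in any library, and their part in the levels below was not tested.

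The 10 genes spanned about an order of magnitude. Mdm4 was the highest of them at 89.7 ± 1.75 TPM (SD, n = 3), and Atr the lowest at 9.23 ± 0.523 TPM. The order from high to low was Mdm4, Sesn3, Trp53, Mdm2, Trp53inp1, Sesn1, Atm, Ccng1, Prkdc and Atr. All lay in the upper part of the 22028 protein-coding genes, with Mdm4 above 97.5% of them and Atr above 71.8%. Many of those genes were not detected, and the 9851 at 1 TPM or more in all 3 libraries had a median of 13.5 TPM. Prkdc, at 9.91 TPM, and Atr lay below that median, and the other members above it. Counts behind the levels averaged from 838 per library for Atr to 5342 for Mdm4.

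**Figure D1:**
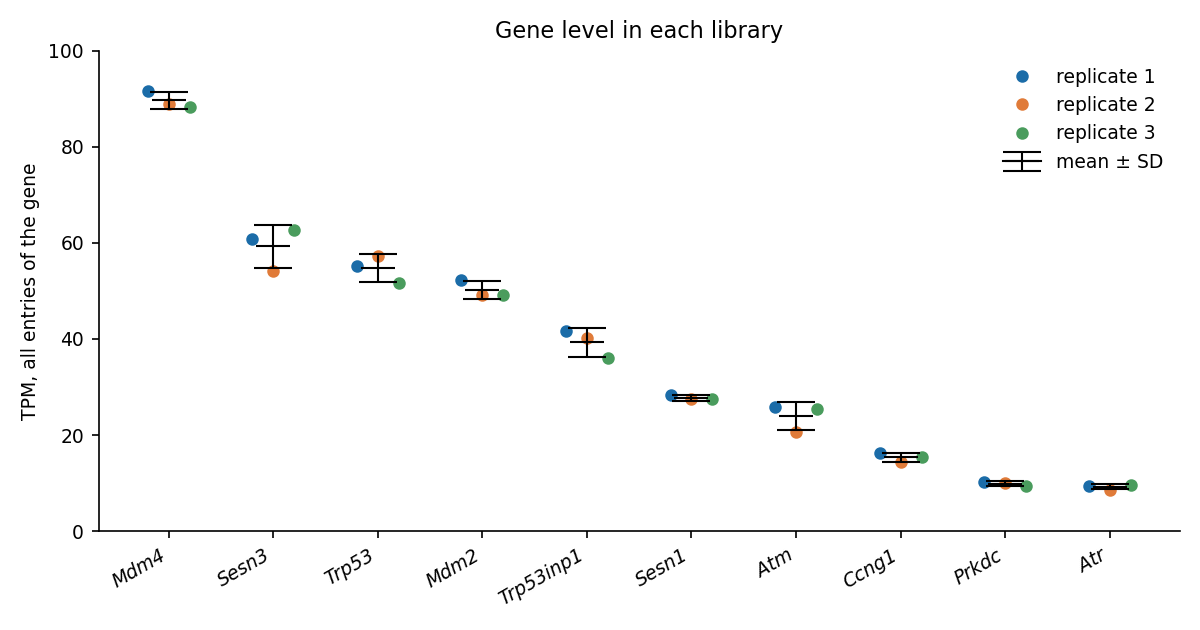
Level of each gene in TPM over all its annotated transcript entries (vertical axis, linear) for the 10 genes in order of mean level. Dots are the 3 libraries and bars the mean ± SD; Mdm4 stands alone near 90 TPM, and Sesn3, Trp53 and Mdm2 lie close together between 49.1 and 62.8 TPM.

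Neighbours in that order were compared by the log2 ratio of their TPM within each library. Of 9 neighbouring pairs, 5 differed by more than 2 SD of the ratio over libraries. The steps that did not were Sesn3 over Trp53 (0.11 ± 0.18), Trp53 over Mdm2 (0.12 ± 0.08), Sesn1 over Atm (0.22 ± 0.16) and Prkdc over Atr (0.10 ± 0.13). With 3 libraries an exact two-sided sign-flip permutation test cannot go below p = 0.25, and adjusted p over the 9 pairs was 0.321 where all 3 libraries had one sign and 0.5 otherwise. The authors deposited 2 quantifications of each library, both over annotated transcript entries, and values are from the first unless the second is named. In the second Trp53 over Mdm2 was -0.14 and Prkdc over Atr -0.12, so both of these close pairs changed places.

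The gene for p53, Trp53 (ENSMUSG00000059552.13, chr11:69580359-69591873 on mm10, plus strand), had 55.3, 57.3 and 51.6 TPM in replicates 1, 2 and 3. Replicate 2 was the highest and replicate 3 the lowest, a spread of 1.11-fold. Entries annotated as protein-coding held 86.8% ± 2.94 of its TPM (SD, n = 3), and most of the rest was in Trp53-205, a processed transcript at 8.65% ± 0.792. Among the 5595 protein-coding genes of at least 10 TPM in all 3 libraries the median coding share was 69.2%, and 73.0% of them had a lower share than Trp53.

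The last coding exon of mouse Trp53 can begin at either of 2 splice acceptors. The upstream acceptor adds 96 bases (chr11:69591254-69591349) and gives p53 another carboxy terminus, a form known in mouse as alternatively spliced p53, in place of the regular basic end. Both coding ends are shown because they are the difference between the entries counted. They run from the last 20 bases of the shared exon to the stop codon, with the bases after the junction in capitals:

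Trp53 downstream acceptor: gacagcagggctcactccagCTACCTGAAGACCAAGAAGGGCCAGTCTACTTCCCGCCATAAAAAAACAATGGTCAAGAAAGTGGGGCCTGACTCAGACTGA

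Trp53 upstream acceptor: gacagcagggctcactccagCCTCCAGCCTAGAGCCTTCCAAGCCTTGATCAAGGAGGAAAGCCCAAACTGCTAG

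The upstream acceptor held 19.2%, 11.4% and 16.7% of the TPM of the 4 full-length coding entries in replicates 1, 2 and 3, or 15.8% ± 3.95 (SD, n = 3). In the second quantification it held 19.8%, 14.0% and 21.9%, or 18.6% ± 4.07. Replicate 2 was the lowest in both. The upstream acceptor was therefore the minor one in every library, at 7.48 ± 1.87 TPM, against 40.0 ± 2.22 TPM for the downstream one. Each end is carried by a pair of entries that differ elsewhere, and there the quantifications parted. Trp53-202 had 13.7% of the gene's TPM in the first and 0.144% in the second, and Trp53-206 had 0% in the first and 16.6% in the second. Likewise Trp53-203 had 68.9% ± 6.32 in the first and 51.5% ± 4.73 in the second, and Trp53-201 had 4.16% ± 6.92 and 22.1% ± 1.77. The mean of Trp53-201 in the first rested on replicate 2, with 0.145%, 12.1% and 0.194% in replicates 1, 2 and 3 and 0.169% without replicate 2. The share of the acceptor differed less between the quantifications than the share of any of these entries.

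The 2 inhibitors were both well expressed, and Mdm2 was the lower. Mdm2 (ENSMUSG00000020184.15, chr10:117688875-117710758, minus strand) had 52.4, 49.2 and 49.1 TPM in replicates 1, 2 and 3. Mdm4 (ENSMUSG00000054387.13, chr1:132959484-133030561, minus strand) had 91.7, 89.0 and 88.4 TPM. The ranges did not overlap, and replicate 1 was the highest for both genes. The log2 ratio of Mdm2 over Mdm4 was -0.84 ± 0.03, a level 1.79-fold lower for Mdm2, with the same sign in 3 of 3 libraries (exact two-sided sign-flip permutation p = 0.25, the smallest possible, and adjusted p = 0.25 over 4 pairs).

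Both genes carried much of their TPM in entries that do not code for the whole protein. Protein-coding entries held 29.5% ± 0.291 of Mdm2 TPM and 47.9% ± 1.76 of Mdm4 TPM (SD, n = 3). Among the 5595 protein-coding genes of at least 10 TPM, 7.69% had a lower coding share than Mdm2 and 22.4% a lower one than Mdm4. In the second quantification the coding shares were 25.4% ± 0.996 for Mdm2 and 40.1% ± 3.34 for Mdm4. Retained-intron entries, which keep an intron that the coding message lacks, made up 56.4% ± 3.05 of Mdm2 TPM and 40.1% ± 0.745 of Mdm4 TPM. These entries are mostly short, and TPM divides by length, so their part in the counts was smaller. In estimated counts the coding entries held 56.7% ± 1.61 of Mdm2 and 83.5% ± 1.34 of Mdm4. Whether retained-intron counts came from finished RNA or from transcripts still being spliced was not tested.

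**Figure D2:**
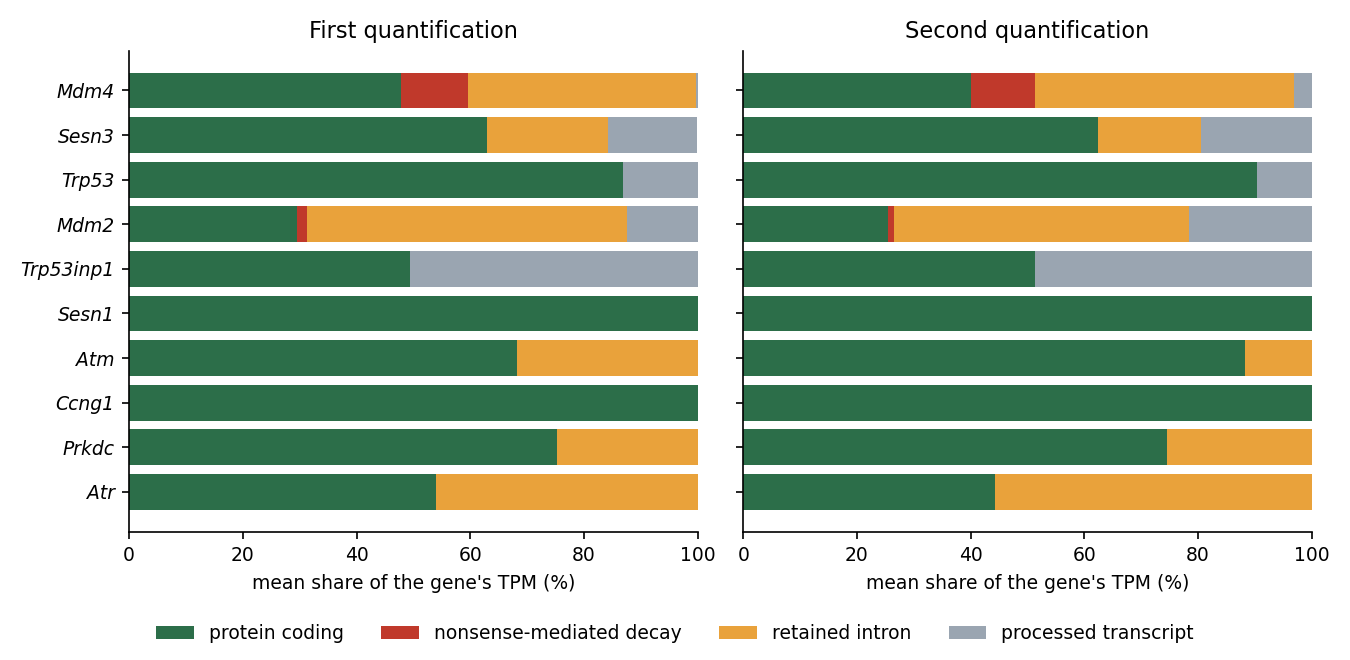
Mean share of each gene's TPM (horizontal axis, percent) held by entries of 4 annotation classes in the first and second quantification, with genes running down in order of mean level. Retained-intron entries hold more of Mdm2 than protein-coding entries in both panels, whereas Ccng1 and Sesn1 are wholly protein-coding.

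Taken over protein-coding entries alone the order of the 10 genes changed. Trp53 came first at 47.5 ± 0.996 TPM, followed by Mdm4 at 42.9 ± 1.11 TPM and Sesn3 at 37.4 ± 3.34 TPM (SD, n = 3). The log2 ratio of Mdm4 over Sesn3 was here 0.20 ± 0.16, within 2 SD. In the second quantification it was -0.0094 ± 0.192 over coding entries, so the order of these 2 genes was not settled. Mdm2 dropped to the eighth place at 14.8 ± 0.506 TPM. The log2 ratio of Trp53 over Mdm2 was 1.68 ± 0.03 over coding entries, a 3.21-fold higher level for Trp53, and 1.69 ± 0.04 in the second quantification. Mdm2 over Mdm4 became -1.54 ± 0.07, or 2.9-fold lower. Sesn3 over Trp53 (-0.35), Mdm2 over Trp53inp1 (-0.38) and Trp53inp1 over Sesn1 (-0.52) turned round relative to their order over all entries.

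**Figure D3:**
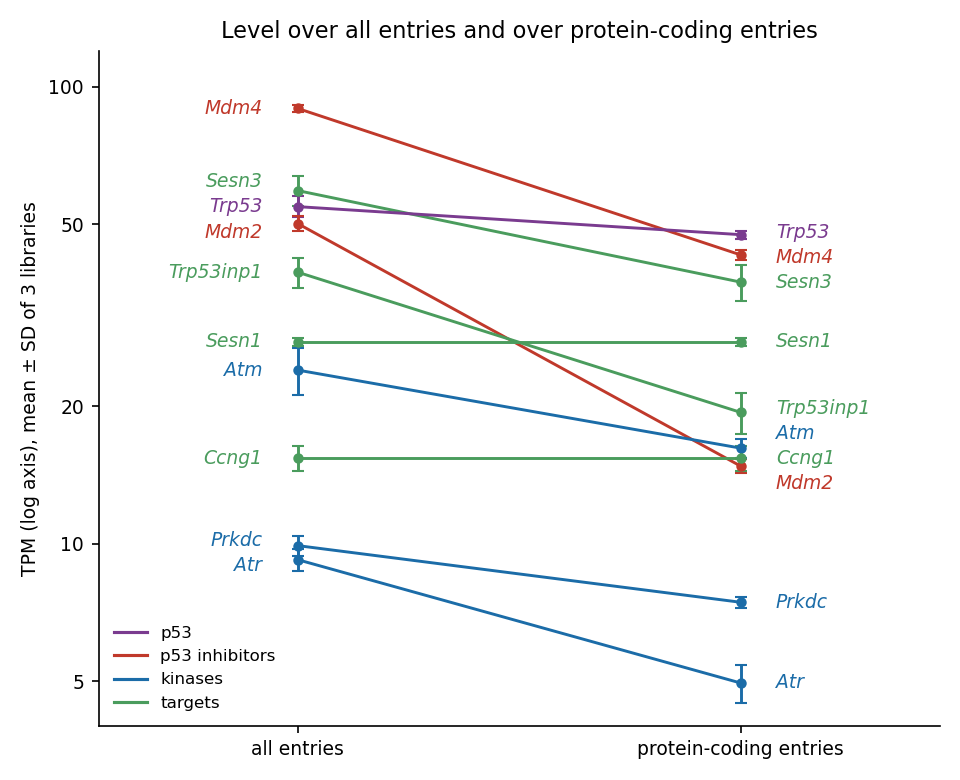
Level of each gene in TPM (vertical log axis) over all transcript entries and over protein-coding entries only, as mean ± SD of 3 libraries, coloured by role. Mdm2 lies beside Trp53 on the left and at 14.8 TPM on the right, where Trp53 is the highest at 47.5 TPM.

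The Mdm4 coding message was almost entirely one entry. Mdm4-210, of 7105 bases, had 38.8, 38.9 and 37.1 TPM in replicates 1, 2 and 3, which is 42.7% ± 0.933 of the gene's TPM and 82.8% ± 1.2 of its estimated counts (SD, n = 3). It held 36.7% ± 2.81 of TPM in the second quantification. Of the other coding entries Mdm4-213, a fragment of 467 bases, had 5.04% ± 1.18 of TPM, whereas Mdm4-201, Mdm4-202 and Mdm4-206 had at most 0.0969%. The retained-intron entries were Mdm4-204 at 14.7% ± 3.59, Mdm4-211 at 13.6% ± 4.39, Mdm4-205 at 4.79% ± 0.567, Mdm4-209 at 4.35% ± 2.59 and Mdm4-207 at 2.62% ± 0.703. The processed transcripts Mdm4-208 and Mdm4-212 had 0.152% and 0.171%. The rest was in entries marked for nonsense-mediated decay, the pathway that destroys messages with an early stop codon.

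Mdm4 is known in human and mouse for a short form, MDM4-S, made when an internal exon is skipped. In these libraries that exon had 68 bases (chr1:133004654-133004721) and was skipped in Mdm4-214. The 2 junctions are shown because the reading frame changes at them. In the first line the exon is in capitals between 20 bases on either side, and in the second the capitals mark the early stop codon that follows the skip:

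Mdm4 exon included: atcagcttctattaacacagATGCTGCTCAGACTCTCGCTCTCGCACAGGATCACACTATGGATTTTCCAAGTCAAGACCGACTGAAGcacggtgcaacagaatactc

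Mdm4 exon skipped: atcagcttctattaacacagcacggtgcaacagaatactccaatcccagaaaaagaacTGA

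The exon was included in 79.2%, 81.8% and 81.6% of the TPM of the entries that span it in replicates 1, 2 and 3, or 80.9% ± 1.42 (SD, n = 3). Replicate 1 was the lowest. The skipped entry Mdm4-214 had 10.3, 8.71 and 8.39 TPM, or 10.2% ± 0.951 of the whole gene, and its deposited posterior SD was at most 9.4% of its count. The second quantification gave an inclusion of 80.0% ± 2.89, and estimated counts in place of TPM gave 91.6% ± 0.763. Mdm4-203, also marked for decay, keeps part of the exon and had 1.47% ± 0.394 of the gene's TPM. With it counted beside the skipped entry, the whole exon was present in 78.7% ± 1.79 in the first quantification and 78.6% ± 3.48 in the second.

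Mdm2 was spread over more entries. The coding entries Mdm2-201 and Mdm2-202 had 9.83 ± 2.54 and 4.98 ± 2.04 TPM in the first quantification (SD, n = 3), but 0.116 ± 0.202 and 18.0 ± 0.244 TPM in the second. They differ in the length of the third exon. Its long form, in Mdm2-202, made up 13%, 24.8% and 31.8% of the compared entries in replicates 1, 2 and 3 of the first quantification, and 64.3%, 68.7% and 63.4% in the second. The ranges of the 2 quantifications did not overlap, so the share of the long exon cannot be given from these files. The retained-intron entries Mdm2-208 (27.1% ± 2.72), Mdm2-204 (17.5% ± 1.88) and Mdm2-205 (11.7% ± 1.07) were closer between them, at 25.1%, 14.7% and 12.1% in the second. The processed transcript Mdm2-207 had 12.0% ± 2.4, and Mdm2-209, Mdm2-203 and Mdm2-206 had 1.7%, 0.394% and 0.0815%.

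Mdm2 has 2 promoters in mammals, an upstream one that works without p53 and a downstream one in the first intron that p53 drives. In the annotation Mdm2-206, Mdm2-207 and Mdm2-209 begin downstream, with the exon of Mdm2-207 reaching over the bases just before the shared second exon. Those 250 bases (chr10:117710029-117710278, minus strand, mm10) are shown because the downstream promoter is known to be bound by p53. Capitals mark windows of 20 bases that match the paired p53 half-site consensus with at most 3 mismatches, with no spacer, a motif that reads the same on both strands:

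Mdm2 upstream of the second exon: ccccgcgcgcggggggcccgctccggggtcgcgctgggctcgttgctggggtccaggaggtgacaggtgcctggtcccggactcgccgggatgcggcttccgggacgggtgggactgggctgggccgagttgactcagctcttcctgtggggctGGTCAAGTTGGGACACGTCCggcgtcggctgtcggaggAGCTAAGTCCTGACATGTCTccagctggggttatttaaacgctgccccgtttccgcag

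There were 2 such windows and no overlap between them. A stricter search, for a single half-site of 10 bases without mismatch, found none here. Of 32851 mouse promoter windows of 250 bases in RefSeq (GRCm38.p6), 5.32% held at least 1 such window and 0.341% held 2 or more. A match is a likeness of letters and not a measured binding site. Entries that begin downstream held 21%, 14.0% and 15.1% of the TPM of entries that begin at either start in replicates 1, 2 and 3, or 16.7% ± 3.76 (SD, n = 3). Replicate 1 was the highest. In the second quantification it was 26.6% ± 6.54, and 6.54% ± 2.96 by estimated counts in the first, so most TPM or counts of the compared Mdm2 entries were assigned to the upstream start on all 3 measures. Both coding entries, Mdm2-201 and Mdm2-202, are annotated only from the upstream start, and the downstream entries are processed transcripts or marked for decay. Coding RNA from the downstream start has no entry of its own, so this division does not measure the use of the 2 promoters. In TPM the downstream entries reached 6.95 ± 1.83 and the upstream entries 34.5 ± 0.646.

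Among the kinases Atm was the highest. Atm (ENSMUSG00000034218.16, chr9:53439149-53536740, minus strand), the main sensor kinase for double-strand breaks, had 25.9, 20.7 and 25.3 TPM in replicates 1, 2 and 3. Atr (ENSMUSG00000032409.15, chr9:95857597-95951781, plus strand), which answers to single-stranded DNA at stalled replication forks, had 9.47, 8.63 and 9.59 TPM. Prkdc (ENSMUSG00000022672.8, chr16:15637866-15842235, plus strand), whose product takes part in the joining of broken ends in V(D)J recombination, had 10.3, 10.1 and 9.33 TPM. Every Atm value was above every value of Atr and Prkdc, and the ranges of Atr and Prkdc overlapped. The log2 ratio of Atm over Atr was 1.37 ± 0.10, or 2.59-fold higher, and that of Prkdc over Atm -1.27 ± 0.21, or 2.41-fold lower (n = 3 libraries, exact sign-flip permutation p = 0.25 for each, the smallest possible, and adjusted p = 0.25). In the second quantification the ratios were 0.83 ± 0.06 and -0.96 ± 0.05.

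Atm had the widest spread of the 10 genes in TPM of the first quantification, with a coefficient of variation of 11.9%, and replicate 2 was the low one. The second gave 22.7 ± 1.55 TPM for Atm and 12.8 ± 1.24 TPM for Atr, a wider relative spread for Atr. By edgeR's dispersion against the trend of all genes, Atm lay above 41.9% of genes, Ccng1 above 61.6% and Trp53inp1 above 69.7%. A short retained-intron entry of 281 bases, Atm-202, had 2.33, 0 and 3.45 TPM in replicates 1, 2 and 3 from a mean of 5.94 estimated counts, so the low library was the one in which it was listed at 0. Over coding entries the Atm levels were 17.2, 15.7 and 15.9 TPM. The full-length entry Atm-201 held 49.1% ± 3.67 of TPM and 88.7% ± 2.69 of estimated counts, and the retained-intron entry Atm-204 held 24.2% ± 0.456 of TPM (11.8% ± 3.23 in the second quantification) and 5.16% ± 0.517 of estimated counts. The fragments Atm-205 and Atm-203 held 10.4% ± 4.16 and 6.3% ± 2.94. Atm-206, full-length from a start farther upstream, held 2.47% ± 2.24 in the first quantification and 27.7% ± 3.75 in the second. The division between them therefore differed by quantification, with Atm-201 at 95.5% ± 3.67 of the pair in the first and 59.1% ± 6.32 in the second.

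Atr was divided between coding and retained-intron entries, at 53.9% ± 6.47 and 46.1% ± 6.55 of TPM. In the second quantification the larger part was retained-intron, with 44.2% ± 4.23 coding and 55.8% ± 4.23 retained-intron, and by estimated counts in the first it was coding, with 78.0% ± 5.76 in coding entries. Atr-201 and Atr-213, both full-length, held 32.5% ± 3.65 and 21.5% ± 4.23, and the second quantification placed 43.2% in Atr-201 and 0.947% in Atr-213. The most abundant of its 11 retained-intron entries was Atr-211 at 10.8% ± 1.76, followed by Atr-212 at 7.94%, Atr-202 at 6.41%, Atr-207 at 6.3%, Atr-208 at 5.2% and Atr-206 at 5.11%, while Atr-210 passed 5% only in the second, at 6.94%. Exons of Atr overlap the antisense RNAs 1700065D16Rik (726 bases) and Gm16794 (462 bases), which were at 0.27 and 0.547 TPM, and whether the deposited counting used strand is not given in the sources used here. Prkdc was simpler. Prkdc-201, of 12647 bases and 86 exons, held 75.3% ± 2.51 of TPM, and the retained-intron entry Prkdc-202 the other 24.7% ± 2.51, with 74.6% and 25.4% in the second quantification.

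The 4 target genes differed in level and in structure. Ccng1 (ENSMUSG00000020326.7, chr11:40748552-40755311, minus strand), which encodes cyclin G1, a partner of protein phosphatase 2A that acts on MDM2, had 16.3, 14.4 and 15.4 TPM in replicates 1, 2 and 3. Replicate 2 was the lowest. All of it was in a single coding entry, Ccng1-201, in both quantifications. Trp53inp1 (ENSMUSG00000028211.11, chr4:11156431-11174379, plus strand), a nuclear and autophagy protein that promotes p53-dependent death, had 41.7, 40.2 and 36.0 TPM, with replicate 3 the lowest. Its coding entry Trp53inp1-201 held 49.4% ± 4.08 and its processed transcripts Trp53inp1-202, Trp53inp1-204 and Trp53inp1-203 held 18.4% ± 4.68, 18.0% ± 1.47 and 14.3% ± 1.89. Trp53inp1-202 holds a 38-base exon (chr4:11167897-11167934) that the coding entry lacks, and also begins elsewhere in the first exon, so the entries compared, of 5432 and 5404 bases, differ by more than that exon. Trp53inp1-202 held 27.1% ± 6.7 of the pair in the first quantification and 26.8% ± 4.3 in the second.

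Sestrins are stress proteins that hold back the growth kinase complex mTORC1, and Sesn2 is a leucine sensor. Sesn1 (ENSMUSG00000038332.13, chr10:41809935-41908424, plus strand) had 28.4, 27.4 and 27.4 TPM in replicates 1, 2 and 3. Sesn3 (ENSMUSG00000032009.8, chr9:14275067-14333101, plus strand), a sestrin that FoxO factors are also known to switch on, had 60.9, 54.2 and 62.8 TPM. Every Sesn3 value was above every Sesn1 value, and replicate 2 was the low one for Sesn3. The log2 ratio of Sesn1 over Sesn3 was -1.09 ± 0.11, or 2.13-fold lower, and the fold over coding entries was 1.34 in the same direction (n = 3, exact sign-flip permutation p = 0.25, adjusted p = 0.25). The third sestrin, Sesn2, was at 2.14, 1.31 and 2.12 TPM, below both in every library.

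Sesn1 begins at either of 2 starts, and the downstream one was the stronger. Sesn1-201, from the downstream start, held 86.9%, 86.4% and 85.8% of the gene's TPM in replicates 1, 2 and 3, or 86.3% ± 0.519 (SD, n = 3), and 82.3% ± 2.88 in the second quantification. Sesn1-202, from the upstream start, held the other 13.7% ± 0.519. Sesn3 was led by the long entry Sesn3-204 of 9125 bases, at 46.5% ± 3.49 of TPM and 82.7% ± 1.53 of estimated counts. Sesn3-201, which begins upstream, held 16.5% ± 3.6, and the upstream start as a whole 21% ± 4.24 of the entries compared (26.6% ± 3.51 in the second quantification and 6.3% ± 1.42 by estimated counts in the first). The remaining entries above 5% were Sesn3-205 at 15.6% ± 2.74, Sesn3-206 at 8.76% ± 1.19 and Sesn3-203 at 7.84% ± 0.286.

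**Figure D4:**
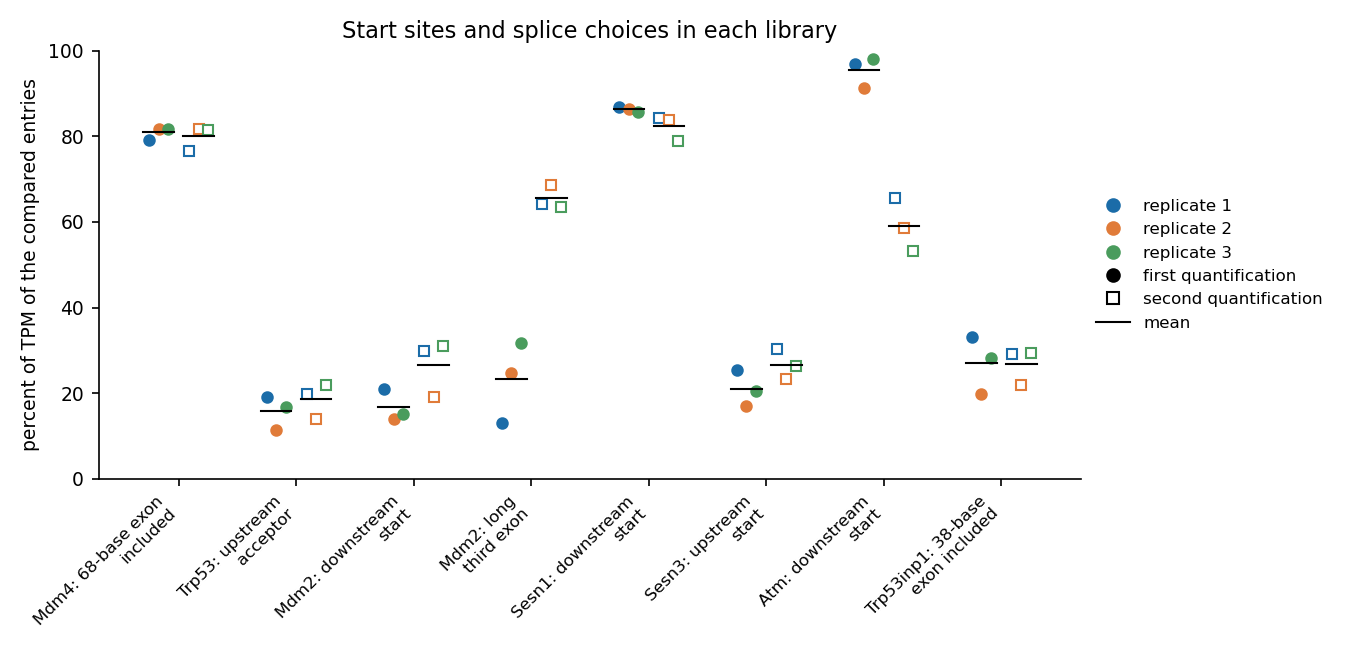
Percent of the TPM of the entries compared (vertical axis) that carry each of 8 start sites or splice choices, by library, with filled circles for the first quantification, open squares for the second and lines for means. The ranges of the 2 quantifications overlap for the Mdm4 exon, the Trp53 acceptor, the Mdm2 and Sesn3 starts and the Trp53inp1 exon, and do not for the Sesn1 start (86.3% and 82.3% on average), the long Mdm2 exon and the Atm start.

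RefSeq start sites were matched for 8 of the 10 genes, with 10 windows of 250 bases before a start, and 4 of these windows held at least 1 paired p53 half-site with at most 3 mismatches, against 5.32% of all promoter windows. They were windows of Trp53, Ccng1 and the downstream starts of Mdm4 and Sesn1, and Ccng1 held 2. This search was added after the stricter one found no half-site upstream of the second Mdm2 exon, so the shares are a description. The Ccng1 and Sesn1 windows are shown because both genes are textbook p53 targets and the Sesn1 window lies just before the start of Sesn1-201, its main entry, with the matches in capitals:

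Ccng1 promoter (chr11:40755287-40755536, minus strand, GRCm38.p6): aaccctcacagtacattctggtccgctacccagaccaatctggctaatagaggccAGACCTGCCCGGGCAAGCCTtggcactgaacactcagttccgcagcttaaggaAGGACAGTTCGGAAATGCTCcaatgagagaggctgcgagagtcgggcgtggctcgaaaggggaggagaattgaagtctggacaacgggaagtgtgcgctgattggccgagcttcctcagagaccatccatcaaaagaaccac

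Sesn1 downstream promoter (chr10:41887189-41887438, plus strand, GRCm38.p6): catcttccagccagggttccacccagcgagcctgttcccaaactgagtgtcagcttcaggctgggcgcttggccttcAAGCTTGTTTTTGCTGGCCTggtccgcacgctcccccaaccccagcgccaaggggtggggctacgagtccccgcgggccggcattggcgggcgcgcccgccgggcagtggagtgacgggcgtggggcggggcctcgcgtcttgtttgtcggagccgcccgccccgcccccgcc

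The windows of the upstream starts of Mdm2, Mdm4 and Sesn1 and those of Atm, Atr and Sesn3 held none, which says only that no 20-base match lies within these 250 bases. The stricter search for a single half-site found 1 in the windows of the upstream Mdm2 start, Trp53, Ccng1 and the downstream start of Sesn1, 4 of 10 against 7.13% of all windows. For the 2 Mdm2 windows the searches thus gave opposite answers. Sesn3, Atm and Atr, without a match in either search, were at 59.3, 24.0 and 9.23 TPM. Trp53, Sesn1 (at its downstream start) and Ccng1, with matches in both, were at 54.7, 27.7 and 15.4 TPM. Whether the matches bear on these levels was not tested.

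The spread of each gene between libraries was tested against the trend of all genes at like abundance, as a check on how far 1 library could set a level. None of the 10 genes had excess spread by edgeR's quasi-likelihood dispersion (adjusted p 0.996 to 0.999, Benjamini-Hochberg over 13280 genes), against 0.565% of all genes tested, and none had an unadjusted p below 0.05. A count of 0 of 10 is near that background and says little of these genes in particular. DESeq2 marked none of the 10 as an outlier in dispersion. The median coefficient of variation was 5.46% over the 10 genes and 7.06% over 5491 protein-coding genes of 10 to 100 TPM. Of the pathway and marker lists, 2 genes were called, both markers of dividing cells. Mki67 had 6.27 TPM in replicate 1, 4.57 TPM in replicate 2 and 2.74 TPM in replicate 3 (adjusted p = 0.00171 by edgeR) and Top2a at 11.7, 7.5 and 5.28 TPM (adjusted p = 0.0119), both highest in replicate 1. Mdm2, Mdm4, Trp53inp1 and Prkdc were likewise highest in replicate 1 and lowest in replicate 3 in the first quantification, without a call. In the second, Trp53inp1 and Prkdc kept that order. Mdm2 and Mdm4 were there lowest in replicate 2, at 67.6 and 107 TPM, against 71.4 and 121 TPM in replicate 3. The part of dividing cells in the levels of these genes was not tested.

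The rest of the pathway was described from lists of genes by role. Among 6 kinases of the PI3K-like family, Smg1, the kinase of nonsense-mediated decay, was the highest at 69.3 ± 3.59 TPM (SD, n = 3), followed by Trrap, a scaffold without kinase activity, at 54.6 ± 2.46 TPM and Atm at 24.0 ± 2.85 TPM. Mtor, named after its value was seen, was at 15.0 ± 1.18 TPM, and Atr was the lowest of the family, with Prkdc below it in the second quantification. The 9 partners and chaperones of these kinases were all at or above 1 TPM in all libraries with a median of 10.8 TPM. They ran from Tti2, a chaperone subunit, at 4.99 ± 0.316 TPM to Mre11a, the nuclease of the ATM-activating complex, at 14.9 ± 3.19 TPM, with Atrip, the partner of ATR, at 12.8 ± 0.242 TPM and Telo2 at 12.2 ± 1.11 TPM.

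All 14 damage sensors and mediators were detected, with a median of 15.8 TPM. Kat5, the acetyltransferase that activates ATM, was the highest at 35.8 ± 4.7 TPM, then Trp53bp1 at 28.0 ± 2.61 TPM and Topbp1 at 26.6 ± 3.88 TPM, and Brca1 was the lowest at 1.32 ± 0.142 TPM. The checkpoint kinases and phosphatases were lower, with a median of 2.08 TPM and 1 of 8 genes at or above 10 TPM (a median of 5.19 TPM in the second quantification). Cdc25b, a phosphatase that drives entry into mitosis, was at 22.5 ± 1.74 TPM, Ppm1d, the phosphatase that reverses ATM signalling, at 9.67 ± 0.698 TPM (11.7 TPM in the second quantification) and Cdc25a at 4.87 ± 0.39 TPM, while Cdc25c was at 0.507 ± 0.223 TPM. The 10 end-joining genes, which work with the product of Prkdc or back it up, had a median of 8.73 TPM. Paxx led at 26.5 ± 0.703 TPM with Parp1 at 26.0 ± 2.26 TPM and Polm at 15.9 ± 0.69 TPM, and Nhej1 was the lowest at 1.27 ± 0.135 TPM. Over all 22028 protein-coding genes, 44.7% were detected, 25.4% reached 10 TPM and the median was 0.487 TPM.

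Regulators of p53 had the highest median of the 10 pathway lists, at 45.2 TPM, and 14 of 16 genes were at or above 10 TPM. Rpl11, a ribosomal protein that binds MDM2, was at 369 ± 23.8 TPM, Huwe1, a ubiquitin ligase of p53, at 110 ± 7.3 TPM and Usp7, the deubiquitinase of MDM2 and p53, at 89.9 ± 4.61 TPM. Cdkn2a, the source of the MDM2 inhibitor ARF, was listed at 0 in all 3 libraries, which allows up to 0.178 to 0.2 CPM (3 counts per library, counting error only). The level of Rpl5, a partner of Rpl11, was 58.8 ± 5.13 TPM in the first quantification and 598 TPM in the second, so the levels of ribosomal protein genes, which have many near-identical copies, were uncertain.

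The other p53 targets ranged from 0 to 87.0 TPM. In the list for cell cycle and repair the median was 6.09 TPM, with Pcna, the replication clamp, at 87.0 ± 7.5 TPM, Btg2, an antiproliferative gene, at 65.6 ± 2.46 TPM and Ddb2, a repair gene, at 23 ± 0.342 TPM. Cdkn1a, the cell cycle inhibitor p21 and the best known p53 target, was named after its values were seen and was at 0.61, 0.3 and 0.7 TPM in replicates 1, 2 and 3, and Phlda3 was the lowest at 0.197 ± 0.186 TPM. In the list for cell death the median was 7.45 TPM. Trp53inp1 was the highest there, then Bax, the pore-forming death effector, at 28.6 ± 1.23 TPM and Ei24 at 15.3 ± 0.987 TPM, while Eda2r had 0.00333 TPM. In the second quantification Bax came before Trp53inp1, at 48.8 TPM against 45.4 TPM. In the list for metabolism and stress the median was 5.8 TPM, with Sesn3 and Sesn1 at the head, Tpp1 next at 16.6 ± 0.898 TPM and Gdf15 listed at 0 in all 3 libraries. Each of these lists holds 1 or 2 of the 10 genes, so their order within it is a description.

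The 16 genes around the sestrins and mTORC1 were all detected, with 11 at or above 10 TPM and a median of 14.8 TPM. Sec13 was the highest at 29.4 ± 1.53 TPM, then Rptor, the defining subunit of mTORC1, at 29.0 ± 1.51 TPM and Tsc2, its upstream inhibitor, at 26.0 ± 0.157 TPM. Wdr59, of the complex that sestrins bind, was the lowest at 4.71 ± 0.49 TPM in the first quantification, but at 13.2 TPM in the second, where Wdr24 was the lowest at 9.26 TPM. Among paralogues, Trp63 and Trp73, the relatives of Trp53, were listed at 0 in all 3 libraries, with the same upper limit as Cdkn2a. Ccng2 was at 19.4 ± 1.97 TPM, beside Ccng1 at 15.4 ± 0.962 TPM, and Trp53inp2 was at 27.4 ± 2.18 TPM, below Trp53inp1 in every library.

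Of the list genes, those with levels nearest to each gene were found by the largest difference in log2(TPM + 1) over the 3 libraries, a likeness of level alone. Mdm2 lay nearest to Crebbp (0.04 at most) and Ep300 (0.08), the acetyltransferases of p53, and Mdm4 to Usp7 (0.05) and Pcna (0.18). Trp53 was nearest to Trrap (0.14) and Ep300 (0.19). The kinases were nearest to Ube4b and Ddb2 (Atm), Dclre1c and Xpc (Atr), and Prkaa1 and Tti1 (Prkdc), with differences of 0.08 to 0.18. The targets were nearest to Ei24 and Polm (Ccng1), Usp10 and Cop1 (Trp53inp1), Bax and Paxx (Sesn1), and Rpl5 and Trrap (Sesn3), with differences of 0.06 to 0.22. Rpl5, at 598 TPM in the second quantification, was near Sesn3 only in the first. The search used the first quantification alone, and some other pairs lay farther apart in the second. There Sesn1 was at 33.5 TPM, against 48.8 TPM for Bax and 43.1 TPM for Paxx, and Prkdc at 11.7 TPM, against 16.6 TPM for Tti1. Others stayed close, such as Trp53inp1 at 45.4 TPM and Cop1 at 44.8 TPM.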

How the data were processed

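Total RNA-seq of 3 libraries of splenic T cells was used. Per the file headers, the authors deposited estimated (expected) counts, TPM, FPKM and posterior SDs per gene and transcript entry (first quantification), and a second transcript table with estimated counts and TPM, summed here per gene. The deposited posterior SD was read as a score of read assignment. Both tables use mm10 with GENCODE M21, per the deposited READMEs; neither aligner nor quantifier is named there or in the labels. Effective length was the length minus 100 bases in the first tables, apart from the shortest entries. In the second it was shorter than the length by a median of 267 to 289 bases for long entries. Short entries lost fewer there, so the tables weight them differently. Atm-202, of 281 bases, had an effective length of 181 in the first and 113 in the second. Reads were assigned to one reference genome, and parental alleles were not analysed here. Libraries had 15.04 to 16.93 M counts; a count of 0 allows 3 counts, covering counting error only, since PCR copies are not independent molecules.

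The members and all lists were chosen with earlier results of these data known. Named genes are all members, the 3 highest and the lowest of each list, genes at 0, genes called for spread, the paralogues, the 2 nearest list genes of each member, and transcript entries with at least 5% of a gene (all entries of Mdm2 and Mdm4). Cdkn1a, Mtor and Wdr24 were named after their values were seen. Detection meant at least 1 TPM in all 3 libraries. The 20-base p53 site search with up to 3 mismatches was added after a stricter search found no half-site in the Mdm2 window.

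Estimated counts were rounded, filtered and TMM-scaled in edgeR 4.0.16 (R 4.3.3, limma 3.58.1) with an intercept-only model, and each gene's quasi-likelihood dispersion was set against the trend, with Benjamini-Hochberg adjustment at 0.05. Tested on simulated data (13101 genes) for the spread between the 3 libraries, 83 of 100 genes with a 2-fold change in 1 library and 100 of 100 with a 4-fold change were called, with 2 false among 185 calls. Ratios used exact two-sided sign-flip permutation over libraries. Alternatives were FPKM, posterior mean TPM, TMM-scaled counts, the second quantification, protein-coding entries, a pseudocount of 1 TPM, other filters, a non-robust fit, DESeq2 1.42.0 and each replicate left out. Python 3.11.15 was used with numpy 2.4.6, pandas 2.3.3 and matplotlib 3.10.9.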

Additional observations from a re-analysis of the deposited data

How the results depend on the processing

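No paired analysis was possible because all 3 libraries form 1 group. The call that none of the 10 genes had excess spread held under every alternative run (DESeq2 size factors, DESeq2's marking of outlying dispersion, no filter, a mean count of at least 100, a non-robust fit, the second quantification and each replicate left out). The number of genes called over the whole table did not: it was 75, against 303 with no filter, 28 with a non-robust fit, 158 by DESeq2's marking and 35 to 85 with 1 replicate left out (43 without replicate 1, 35 without replicate 3). No filter tested 22813 genes instead of 13280; for the others the cause was not tested. The 4 pair ratios (Mdm2 over Mdm4, Atm over Atr, Prkdc over Atm, Sesn1 over Sesn3) kept their sign under FPKM, posterior mean TPM, TMM-scaled counts, the second quantification, protein-coding entries and each replicate left out.

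Neighbouring genes in the order of level changed places as follows. With protein-coding entries only, Sesn3 over Trp53 was -0.35, Mdm2 over Trp53inp1 -0.38 and Trp53inp1 over Sesn1 -0.52. In the second quantification Trp53 over Mdm2 was -0.14 and Prkdc over Atr -0.12, and with posterior mean TPM Prkdc over Atr was -0.0006. TMM-scaled counts, which are not divided by length, gave -0.98 for Mdm2 over Trp53inp1, -0.79 for Sesn1 over Atm and -0.95 for Ccng1 over Prkdc. Of 57 entry shares, 36 moved by more than 1 SD in the second quantification, which also used other effective lengths, and the cause was not tested. Of 134 list genes of at least 1 TPM, 29 were over 1.5-fold higher in the second quantification and 0 over 1.5-fold lower, Topbp1, Trp53bp1, Paxx, Bax, Tpp1, Tti1 and Klrb1c among the 29.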
